A study of Mus musculus with 3 samples.

Results

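Meg is the cluster of megakaryocyte progenitor cells among bone marrow progenitors of wild-type C57BL/6 mice, profiled by CITE-seq, which counts a cell's transcripts together with DNA tags carried by antibodies on its surface. Its cells are those to which the authors' deposited annotation gives the cluster name Meg, and they number 171 of 11132 cells in 17 clusters. The labels describe marrow from crushed hindlimbs that was enriched with CD117 microbeads, stained, sorted as modified GMP (GMP commonly stands for granulocyte-monocyte progenitor) and run on the 10x Genomics 3' v2 assay. There was 1 female and 1 male mRNA library, and the antibody tags of both sexes were pooled in 1 library. All groups below share this genotype, strain and enrichment, no treatment is named, and the sources used here give neither the age and number of mice nor the limits of the sort gate. The female library held 86 Meg cells, 1.98% of its 4336 cells (95% exact binomial interval 1.59% to 2.44%), and the male library 85, 1.25% of 6796 (1.00% to 1.54%). Meg was compared with Eryth (erythroid progenitors, 41 female and 43 male cells), HSCP-2 (stem and progenitor cells, 256 and 290) and Multi-Lin (multilineage progenitors, 686 and 1066).

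Megakaryocytes are the large, polyploid marrow cells that shed platelets. Their progenitors stand close to the erythroid lineage and to stem cells, and they build up platelet granule proteins, adhesion receptors for von Willebrand factor and fibrinogen, and an internal membrane and tubulin system under the control of GATA, FOG and ETS family transcription factors. Pf4 encodes platelet factor 4, a chemokine stored in alpha granules. Itga2b encodes integrin alpha IIb (CD41), a subunit of the fibrinogen receptor, and Gata1 encodes a zinc finger factor required in both megakaryocytes and erythroid cells.

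The promoters of 3 genes are shown because Pf4 and Itga2b are the markers of the cluster and Gp1bb, which encodes a subunit of the von Willebrand factor receptor, stood among the largest differences in all 3 comparisons. The sequences are RefSeq's for GRCm38.p6, 300 bases around the first base of each gene, 5′ to 3′ on the gene's strand. Capitals mark letters of the GATA type (AGATAA or, with other letters at its ends, AGATAG, likewise TGATAA, likewise TGATAG) and of the ETS type (AGGAAG or, with another first letter, CGGAAG) on either strand, so that a match on the opposite strand appears as its reverse complement.
Pf4 (chr5:90772185-90772484, + strand): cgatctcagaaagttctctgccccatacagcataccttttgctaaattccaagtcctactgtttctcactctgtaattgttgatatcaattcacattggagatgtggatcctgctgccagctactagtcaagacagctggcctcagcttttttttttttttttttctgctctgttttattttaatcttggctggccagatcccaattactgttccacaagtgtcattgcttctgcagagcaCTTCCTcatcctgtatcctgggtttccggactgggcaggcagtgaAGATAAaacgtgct
Itga2b (chr11:102469834-102470133, - strand): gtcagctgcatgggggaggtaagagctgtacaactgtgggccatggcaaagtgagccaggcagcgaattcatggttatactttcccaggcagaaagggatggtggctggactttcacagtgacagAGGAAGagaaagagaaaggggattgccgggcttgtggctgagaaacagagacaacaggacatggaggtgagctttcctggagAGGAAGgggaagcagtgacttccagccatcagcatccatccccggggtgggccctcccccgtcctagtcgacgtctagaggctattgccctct
Gp1bb (chr16:18622354-18622653, - strand): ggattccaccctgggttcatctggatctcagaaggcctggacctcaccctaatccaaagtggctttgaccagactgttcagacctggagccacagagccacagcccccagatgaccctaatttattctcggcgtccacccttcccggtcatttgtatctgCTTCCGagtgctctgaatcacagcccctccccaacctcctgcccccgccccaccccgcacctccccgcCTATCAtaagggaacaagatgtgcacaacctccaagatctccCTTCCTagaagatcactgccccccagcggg
Counted from 1 at the first base of the gene, the Pf4 window held AGATAA at 37 to 42 and, on the opposite strand, AGGAAG at -9 to -4. The Itga2b window held AGGAAG at -125 to -120 and at -43 to -38 and none of the GATA-type letters. The Gp1bb window held, all on the opposite strand, TGATAG at -22 to -17, CGGAAG at -90 to -85 and AGGAAG at 21 to 26. Such letters are common. Any of the GATA-type letters occurred in 30.2% of 27025 promoters of this length and any of the ETS-type letters in 46.4%. Among the 98 of 123 megakaryocyte list genes with a promoter in the table, the shares were 15.3% and 52.0%. No motif overlapped another in the 3 windows shown. In the same assembly Pf4 (ENSMUSG00000029373) lies at chr5:90772435-90773383, Itga2b (ENSMUSG00000034664) at chr11:102453297-102469883, Gata1 (ENSMUSG00000031162) at chrX:7959260-7976663 and Gp1bb (ENSMUSG00000050761) at chr16:18620319-18622403.

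Unique transcript counts (UMIs) are given below as CPM, a gene's UMIs over all UMIs of the cluster in a library times 1000000, and where 2 values are joined by "and" they are those of the female and of the male library. Meg held 1432652 and 1180346 UMIs, with a median of 15946.5 and 12799 UMIs and 3680 and 3245 genes per cell. Median UMIs per cell were 12993 and 10904 in Eryth, 8298.5 and 7140.5 in HSCP-2 and 17137.5 and 13805 in Multi-Lin. Of 45 cell barcodes found in both libraries, none belonged to a Meg cell. In the male library 3 Meg cells stood apart. Their Ly-6G antibody counts were 11543, 10260 and 7977, against at most 691 in the other male Meg cells and 594 in the female ones. In them 4.90%, 8.27% and 9.14% of UMIs came from secondary granule genes, which mark maturing neutrophils, against at most 0.644% in the other male and 0.864% in the female Meg cells. They also held 91, 56 and 374 Pf4 UMIs. Eryth had 0 and 1 cells with over 1000 Ly-6G counts, HSCP-2 had 2 and 3 and Multi-Lin had 3 and 7. Counts over all megakaryocyte lists and results for secondary granule genes are given with and without these cells. Counts of other lists are given with all cells, and some changed without them. Transcription factor genes against Eryth went from 7 higher and 4 lower to 6 higher and 3 lower. G2/M genes higher than in Multi-Lin went from 13 to 15.

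The 3 markers fitted the cluster's name in both libraries. Pf4 had 5354 and 3596 CPM in Meg, and the next clusters were Multi-Lin with 31.5 CPM in the female and MDP with 77.3 CPM in the male library. Few cells carried these next levels. In female Multi-Lin 2 cells held 74 and 190 of 386 Pf4 UMIs, and in male MDP 2 cells held 74 and 119 of 202. Itga2b had 309.9 and 241 CPM in Meg, followed by HSCP-2 with 47.3 CPM in the female and Multi-Lin with 47.7 CPM in the male library. Pf4 and Itga2b were thus highest in Meg among the 17 clusters in each library, whereas Gata1, at 90.7 and 83.9 CPM in Meg, stood second to Eryth at 148 and 149 CPM. In Meg 87.2% and 82.4% of cells held a Pf4 UMI, 90.7% and 92.9% an Itga2b UMI and 72.1% and 61.2% a Gata1 UMI. In Gran-1, a granulocyte cluster that should lack these genes, the shares were 21.2% and 5.78%, 11.9% and 5.32%, and 3.25% and 1.82%, at the greater median depth of 27601.5 and 22359 UMIs per cell. Thinned to 5000 UMIs per cell, the Meg shares were 76.5% and 69.4% for Pf4, 68.2% and 71.8% for Itga2b and 42.4% and 36.5% for Gata1. All 3 markers were found together in 51 female and 42 male Meg cells, and none of them in 2 female and 1 male. All 3 occurred together in 1 and 1 Eryth cells, 10 and 5 HSCP-2 cells and 21 and 21 Multi-Lin cells.

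**Figure D1:**
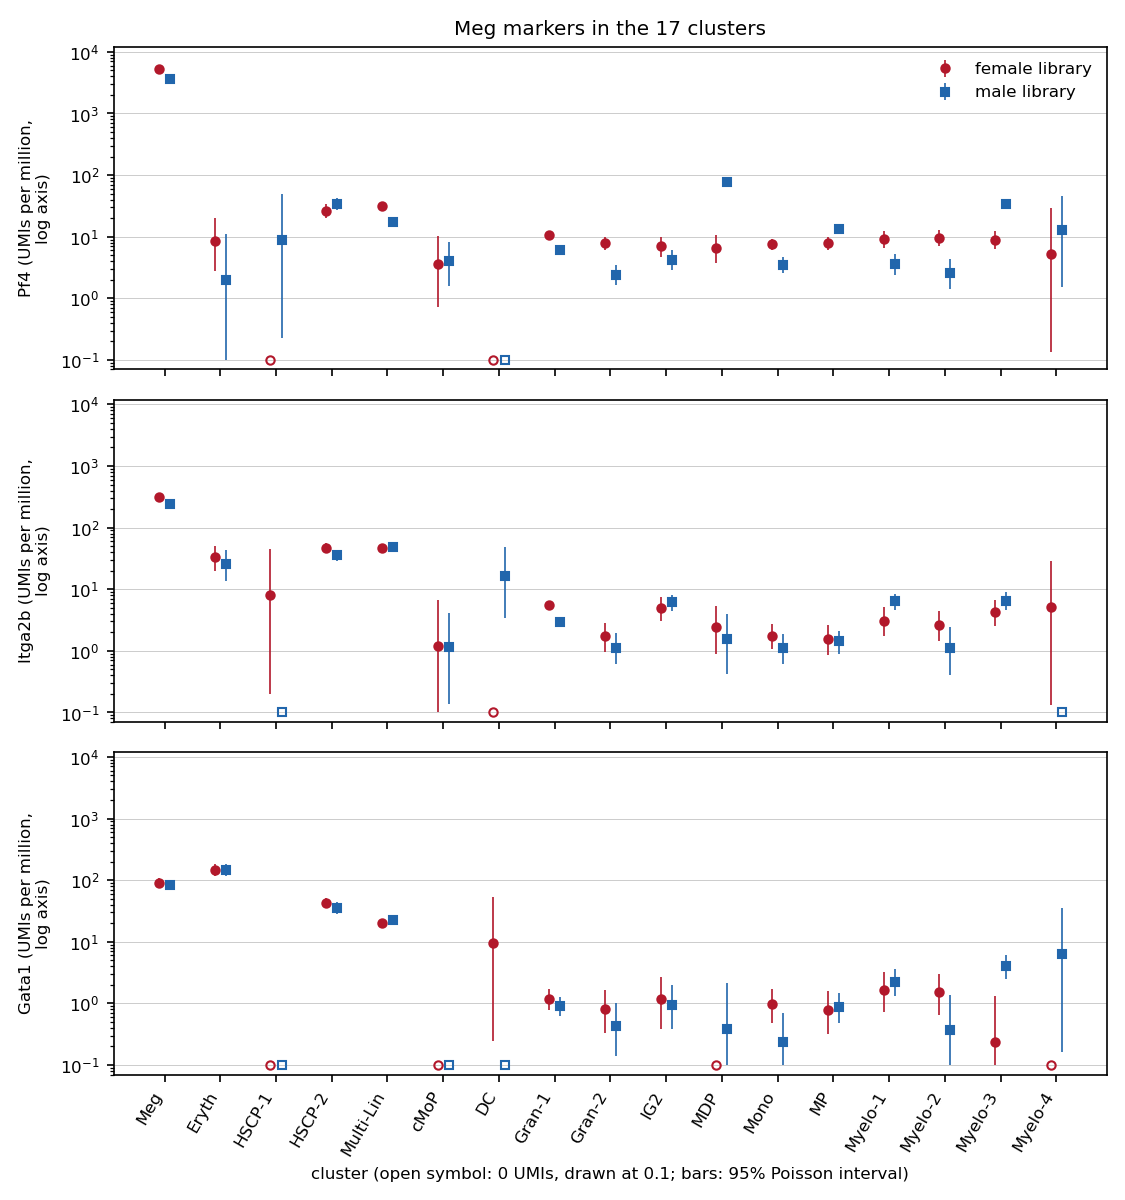
CPM of Pf4, Itga2b and Gata1 (log axis) in each of the 17 clusters, with 1 symbol per library and exact Poisson 95% bars, and open symbols at the foot of the axis for clusters with 0 UMIs. Pf4 at 5354 and 3596 CPM and Itga2b at 309.9 and 241 CPM stand highest in Meg in both libraries, and Gata1 is higher in Eryth.

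Which transcripts set Meg apart from each neighbouring progenitor cluster was asked with 8 sums, 1 for each of the 4 clusters in each library, fitted together in edgeR's quasi-likelihood test with the library as a covariate. Of 9413 genes tested, 12.0% passed an adjusted p of 0.05 against Eryth (5.8% higher in Meg, 6.17% lower), 29.2% against HSCP-2 (14.0% higher, 15.2% lower) and 23.5% against Multi-Lin (10.4% higher, 13.0% lower). "Higher", "lower", "rose" and "fell" below mean past that threshold. The value after ± beside a log2 fold change is an approximate standard error derived from the test statistic. It can be smaller than the counting error where a cluster holds few UMIs of a gene. Genes with few UMIs in Eryth include Serpine2, Gp1bb, Rab27b, Tbxas1, Ptgs1 and Plek, so the sizes of their folds over Eryth are imprecise. Because the authors' clusters rest on the same RNA, the calls describe Meg and are no independent evidence for it. With the library as a covariate, the p-values rest on how unevenly differences between the 4 clusters repeated in these 2 libraries. They do not measure the spread between mice. The 3 comparisons share the Meg sums, and the median log2 fold change over all genes was 0.02, -0.04 and -0.00.

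Genes of the megakaryocyte and platelet programme rose in Meg against each of the 3 clusters. Of the 99 tested of 123 genes in the 5 megakaryocyte lists, 66 were higher and 5 lower than in Eryth, 61 higher and 8 lower than in HSCP-2, and 73 higher and 7 lower than in Multi-Lin. The median log2 fold changes were 1.51, 0.70 and 1.41, all above those of all genes. Without the cells with over 1000 Ly-6G counts, a check chosen after seeing the data, the counts were 64 and 4, 61 and 8, and 73 and 7. The other 24 genes had too few UMIs to be tested. A gene with enough UMIs in the Meg sums alone also passed the filter, and such a gene could only come out higher. The counts of higher genes and the medians, here and for the single lists below, are therefore partly set by the filter and are a description. The lists were also chosen with earlier results of these data known.

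Among genes for granule cargo, Pf4 showed the largest difference. Pf4 had 5354 and 3596 CPM in Meg, against 8.62 and 1.96 in Eryth, 26.4 and 34.5 in HSCP-2 and 31.5 and 17.1 in Multi-Lin. Every Meg sum was far above every other sum, and the fold over Eryth was 760.2 (log2 9.57 ± 0.19, edgeR adjusted p 1.02e-33), with log2 values of 7.17 ± 0.11 over HSCP-2 and 7.43 ± 0.10 over Multi-Lin. The Eryth levels of Pf4 rest on 5 and 1 UMIs (exact Poisson 95% intervals 2.80 to 20.1 and 0.0496 to 10.9 CPM), so the size of the fold over Eryth is imprecise. Serpine2, which encodes the thrombin inhibitor protease nexin-1, had 158 and 94.9 CPM in Meg, against 5.17 and 5.88 in Eryth, 2.99 and 8.405 in HSCP-2 and 19.03 and 19.4 in Multi-Lin (log2 4.43 ± 0.41 over Eryth, 4.45 ± 0.25 over HSCP-2 and 2.60 ± 0.15 over Multi-Lin). Vwf, which encodes the adhesive protein von Willebrand factor, had 62.1 and 56.8 CPM in Meg, against 0 and 3.92 in Eryth, 1.71 and 1.26 in HSCP-2 and 0.245 and 0.387 in Multi-Lin. In Eryth that is 2 UMIs in all, so no fold over Eryth is given. The log2 fold change of Vwf was 5.28 ± 0.37 over HSCP-2 and 7.29 ± 0.32 over Multi-Lin.

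Of 13 cargo genes tested among 20, 10 were higher and none lower than in Eryth, 8 higher and 1 lower than in HSCP-2, and 9 higher and 2 lower than in Multi-Lin. Pf4, Ppbp (the precursor of platelet basic protein), Vwf, Clu (clusterin), Mmrn1 (multimerin, a factor V binding protein), Tgfb1, Serpine2 and Timp3 (a metalloprotease inhibitor) rose against all 3 clusters. Ppbp was still low in Meg, with 23 and 12 UMIs, and Timp3, Mmrn1 and Ppbp had no UMI in Eryth, which makes them at least 11.4-fold, 8.62-fold and 4.87-fold higher in Meg, against a floor of 3 UMIs over both libraries. Tgfb1 had 646 and 545 CPM in Meg, against 435 and 358 in Eryth, 353 and 304 in HSCP-2 and 399.8 and 346 in Multi-Lin (log2 0.48 ± 0.09 over Eryth, 0.84 ± 0.07 over HSCP-2 and 0.56 ± 0.07 over Multi-Lin). Srgn, the proteoglycan core of granules in many blood cells, had 1099 and 1033 CPM in Meg, against 828 and 737 in Eryth, 1290.2 and 1226 in HSCP-2 and 1448 and 1562 in Multi-Lin. Srgn rose against Eryth by 0.34 on the log2 scale and was lower than in HSCP-2 (-0.26) and Multi-Lin (-0.61, and -0.40 in the female library alone). Angpt1, a ligand of the Tie2 receptor, had 76.8 and 86.4 CPM in Meg, against 22.4 and 13.7 in Eryth, 92.98 and 89.5 in HSCP-2 and 43.6 and 42.4 in Multi-Lin, higher than in Eryth and Multi-Lin and without a call against HSCP-2 (edgeR adjusted p 0.328). Fgl2 was the other gene lower than in Multi-Lin. With cells thinned to 5000 UMIs, the calls over Eryth were lost for Srgn (edgeR adjusted p 0.412) and Tgfb1 (edgeR adjusted p 0.0771). The call of Srgn against HSCP-2 was lost in DESeq2 (adjusted p 0.0552) and in 1 fit over all clusters (edgeR adjusted p 0.0555).

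Genes for platelet surface receptors rose in Meg as a group with few exceptions. Of 23 tested among 30, 21 were higher and none lower than in Eryth, 17 higher and 1 lower than in HSCP-2, and 21 higher and 1 lower than in Multi-Lin. Itga2b had 309.9 and 241 CPM in Meg, against 32.8 and 25.5 in Eryth, 47.3 and 35.7 in HSCP-2 and 46.1 and 47.7 in Multi-Lin (log2 3.13 ± 0.21 over Eryth, 2.72 ± 0.12 over HSCP-2 and 2.43 ± 0.09 over Multi-Lin). The largest edgeR adjusted p of its 3 calls was 1.34e-15. The 3 tested genes of the receptor for von Willebrand factor rose against all 3 clusters. Gp1bb had 232 and 147 CPM in Meg, against 6.898 and 0 in Eryth, 4.27 and 3.36 in HSCP-2 and 3.02 and 1.36 in Multi-Lin (log2 5.59 ± 0.35 over Eryth, 5.60 ± 0.22 over HSCP-2 and 6.33 ± 0.16 over Multi-Lin). Gp9 had 147 and 121 CPM in Meg, against 15.5 and 31.3 in Eryth, 33.7 and 28.6 in HSCP-2 and 9.31 and 9.49 in Multi-Lin (log2 2.45 ± 0.25 over Eryth, 2.09 ± 0.15 over HSCP-2 and 3.71 ± 0.14 over Multi-Lin). Gp5 had 126 and 101 CPM in Meg, against 31.04 and 33.3 in Eryth, 20.5 and 13.4 in HSCP-2 and 2.69 and 2.58 in Multi-Lin (log2 1.72 ± 0.23 over Eryth, 2.73 ± 0.17 over HSCP-2 and 5.28 ± 0.17 over Multi-Lin). Levels of Gp9 and Gp5 in Eryth and HSCP-2 were above those in Multi-Lin in both libraries, and Meg was above all of them.

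F2r and F2rl2, genes for receptors of the platelet-activating protease thrombin, were higher in Meg than in all 3 clusters. The thrombin receptor gene F2r had 145 and 88.1 CPM in Meg, against 43.1 and 35.3 in Eryth, 33.3 and 24.4 in HSCP-2 and 3.76 and 3.49 in Multi-Lin (log2 1.47 ± 0.22 over Eryth, 2.00 ± 0.16 over HSCP-2 and 4.86 ± 0.16 over Multi-Lin). F2rl2, which encodes a thrombin receptor of mouse platelets, had 69.1 and 35.6 CPM in Meg, against 0.427 and 2.101 in HSCP-2 and 0.163 and 0.323 in Multi-Lin, and 1 UMI in all Eryth cells. Treml1, a receptor of platelet alpha granules, had 94.9 and 66.1 CPM in Meg, against 1.72 and 5.88 in Eryth, 8.104 and 3.78 in HSCP-2 and 0.898 and 0.581 in Multi-Lin. Itgb3, the partner of Itga2b in the fibrinogen receptor, had 20.9 and 20.3 CPM in Meg, against 3.45 and 1.96 in Eryth, 1.71 and 1.68 in HSCP-2 and 2.45 and 2.001 in Multi-Lin and rose against all 3 clusters.

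Other named members of the receptor list were Cd9, Slc14a1 and Cd63. Cd9, a tetraspanin gene, had 654 and 513 CPM in Meg, against 89.7 and 99.9 in Eryth, 106 and 109.7 in HSCP-2 and 91.9 and 96.9 in Multi-Lin (log2 2.53 ± 0.14 over Eryth, 2.42 ± 0.09 over HSCP-2 and 2.51 ± 0.07 over Multi-Lin). Slc14a1, a urea transporter gene also known from red cells, had 186 and 136 CPM in Meg, against 20.7 and 15.7 in Eryth, 11.9 and 11.8 in HSCP-2 and 4.25 and 3.87 in Multi-Lin (log2 3.03 ± 0.24 over Eryth, 3.74 ± 0.17 over HSCP-2 and 5.17 ± 0.15 over Multi-Lin). Cd63, a tetraspanin of lysosomes and dense granules, went the other way against 2 clusters, with 204 and 251 CPM in Meg, against 124 and 188 in Eryth, 283 and 371 in HSCP-2 and 545 and 652 in Multi-Lin. Cd63 was lower than in HSCP-2 (-0.54 ± 0.08) and Multi-Lin (-1.51 ± 0.08). Its rise over Eryth (0.45 ± 0.13, and 0.71 in the female library alone) was lost with thinned cells (edgeR adjusted p 0.331), without the library as a covariate (0.161) and in 1 fit over all clusters (0.144).

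Genes for transcription factors of the lineage moved in both directions. Of 23 tested, 7 were higher and 4 lower than in Eryth, 7 higher and 5 lower than in HSCP-2, and 13 higher and 2 lower than in Multi-Lin. Gata1 had 90.7 and 83.9 CPM in Meg, against 148 and 149 in Eryth, 42.7 and 35.7 in HSCP-2 and 19.8 and 22.2 in Multi-Lin, so that Meg lay between Eryth and the 2 earlier clusters in both libraries. The log2 fold change of Gata1 was -0.87 ± 0.16 over Eryth (edgeR adjusted p 0.000144), 1.14 ± 0.16 over HSCP-2 and 1.93 ± 0.14 over Multi-Lin. With cells thinned to 5000 UMIs, the difference from Eryth was -0.35 and not called (edgeR adjusted p 0.588). Gfi1b, a repressor needed in both lineages, had 74.7 and 69.5 CPM in Meg, against 112 and 82.3 in Eryth, 41.8 and 31.1 in HSCP-2 and 13.7 and 13.3 in Multi-Lin. Like Gata1 it was lower than in Eryth (edgeR adjusted p 0.0498) and higher than in the other clusters. Zfpm1, which encodes the Gata1 partner FOG1, had 77.5 and 82.2 CPM in Meg, against 51.7 and 47.01 in Eryth, 29.00 and 23.95 in HSCP-2 and 10.3 and 11.5 in Multi-Lin, with no call against Eryth (edgeR adjusted p 0.08) and rises over HSCP-2 and Multi-Lin.

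Fli1, an ETS factor that activates late megakaryocyte genes, rose against all 3 clusters with 149 and 130.5 CPM in Meg, against 15.5 and 9.79 in Eryth, 50.3 and 55.1 in HSCP-2 and 49.98 and 46.98 in Multi-Lin (log2 3.34 ± 0.28 over Eryth, 1.39 ± 0.13 over HSCP-2 and 1.41 ± 0.11 over Multi-Lin). Mef2c, a MADS box factor, had 482 and 428 CPM in Meg, against 70.7 and 108 in Eryth, 197 and 196 in HSCP-2 and 80.1 and 75.6 in Multi-Lin (log2 2.27 ± 0.14 over Eryth, 1.20 ± 0.08 over HSCP-2 and 2.43 ± 0.07 over Multi-Lin). Both Fli1 and Mef2c rose in all 3 comparisons. Meis1, a homeodomain factor, had 145 and 169 CPM in Meg, against 24.1 and 15.7 in Eryth, 124 and 154 in HSCP-2 and 41.2 and 41.9 in Multi-Lin, higher than in Eryth (2.85 ± 0.24) and Multi-Lin (1.80 ± 0.11) with no call against HSCP-2 (edgeR adjusted p 0.283).

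Lmo2, a bridging protein of the GATA and TAL1 complex, had 586 and 512 CPM in Meg, against 355 and 294 in Eryth, 688 and 692 in HSCP-2 and 378 and 369 in Multi-Lin, higher than in Eryth (0.65 ± 0.10) and Multi-Lin (0.44 ± 0.07) and lower than in HSCP-2 (-0.35 ± 0.07). Gata2, the GATA factor of stem and early progenitor cells, had 205 and 166 CPM in Meg, against 228 and 209.6 in Eryth, 185 and 156 in HSCP-2 and 115 and 121 in Multi-Lin. The only call of Gata2 was its rise over Multi-Lin (0.54 ± 0.09, 0.83 in the female library alone), which was lost with thinned cells (edgeR adjusted p 0.252). Nfe2, a factor of platelet release, had 131 and 145 CPM in Meg, against 110.4 and 118 in Eryth, 142 and 126 in HSCP-2 and 94.6 and 101 in Multi-Lin and rose only against Multi-Lin (0.37 ± 0.10). Runx1, a core binding factor, had 62.1 and 64.4 CPM in Meg, against 29.3 and 41.1 in Eryth, 58.01 and 52.1 in HSCP-2 and 67.5 and 62.3 in Multi-Lin and rose only against Eryth (0.75 ± 0.25, edgeR adjusted p 0.0412). Lyl1 and Hhex were lower than in HSCP-2 and Multi-Lin.

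Cytoskeletal and trafficking genes rose in part. Of 17 tested among 24, 9 were higher than in Eryth, 9 than in HSCP-2 and 11 than in Multi-Lin, and Cnn3 (calponin 3) was lower than in HSCP-2 and Multi-Lin. Rab27b, a small GTPase of dense granule transport, differed most of the named members, with 150.1 and 91.5 CPM in Meg, against 0 and 7.84 in Eryth, 7.25 and 9.67 in HSCP-2 and 1.72 and 2.58 in Multi-Lin (log2 4.94 ± 0.46 over Eryth, 3.82 ± 0.24 over HSCP-2 and 5.64 ± 0.21 over Multi-Lin). Tuba8, an alpha tubulin gene, had 149 and 141 CPM in Meg, against 27.6 and 25.5 in Eryth, 19.6 and 14.7 in HSCP-2 and 20.1 and 23.4 in Multi-Lin (log2 2.35 ± 0.24 over Eryth, 3.07 ± 0.17 over HSCP-2 and 2.62 ± 0.12 over Multi-Lin). Tuba4a, another alpha tubulin gene, had 416 and 434 CPM in Meg, against 329 and 439 in Eryth, 257 and 281 in HSCP-2 and 422 and 450.2 in Multi-Lin and rose only against HSCP-2 (0.64 ± 0.08). Differences in 3 genes of integrin adhesion were smaller. Fermt3, which encodes the integrin activator kindlin-3, had 347 and 279.6 CPM in Meg, against 200.1 and 159 in Eryth, 162 and 164 in HSCP-2 and 119 and 122 in Multi-Lin (log2 0.70 ± 0.12 over Eryth, 0.93 ± 0.09 over HSCP-2 and 1.27 ± 0.08 over Multi-Lin). Tln1, which encodes talin, had 189.9 and 176 CPM in Meg, against 117 and 119 in Eryth, 127 and 129.9 in HSCP-2 and 105 and 106 in Multi-Lin (log2 0.53 ± 0.14 over Eryth, 0.50 ± 0.10 over HSCP-2 and 0.68 ± 0.08 over Multi-Lin). Zyx, which encodes the focal adhesion protein zyxin, had 191 and 147 CPM in Meg, against 65.5 and 45.1 in Eryth, 163 and 145 in HSCP-2 and 89.02 and 81.6 in Multi-Lin, with rises over Eryth (1.501 ± 0.18) and Multi-Lin (0.87 ± 0.09) and no call against HSCP-2 (edgeR adjusted p 0.386). Over Eryth the call of Fermt3 was lost with thinned cells (edgeR adjusted p 0.054) and that of Tln1 without cells over 2 times the median UMIs of their cluster and library (edgeR adjusted p 0.059).

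Signalling and thromboxane genes rose in Meg in most cases. Of 23 tested among 26, 19 were higher and 1 lower than in Eryth, 20 higher and none lower than in HSCP-2, and 19 higher and 1 lower than in Multi-Lin. Rap1b, the small GTPase that switches on platelet integrins, had 804 and 689.6 CPM in Meg, against 75.9 and 70.5 in Eryth, 98.5 and 113 in HSCP-2 and 123 and 122 in Multi-Lin (log2 3.25 ± 0.13 over Eryth, 2.80 ± 0.08 over HSCP-2 and 2.50 ± 0.07 over Multi-Lin). Nrgn, which encodes the calmodulin-binding protein neurogranin, had 422 and 383 CPM in Meg, against 51.7 and 70.5 in Eryth, 148 and 168 in HSCP-2 and 67.6 and 57.8 in Multi-Lin (log2 2.63 ± 0.16 over Eryth, 1.33 ± 0.09 over HSCP-2 and 2.57 ± 0.08 over Multi-Lin). Rgs18, a regulator of G protein signalling of the lineage, had 404 and 349.9 CPM in Meg, against 86.2 and 76.4 in Eryth, 182 and 174 in HSCP-2 and 126 and 134 in Multi-Lin (log2 2.11 ± 0.14 over Eryth, 1.07 ± 0.08 over HSCP-2 and 1.43 ± 0.07 over Multi-Lin). Dapp1, an adaptor of phosphoinositide signalling, had 346 and 314 CPM in Meg, against 112 and 104 in Eryth, 219 and 235 in HSCP-2 and 179 and 199 in Multi-Lin (log2 1.51 ± 0.13 over Eryth, 0.53 ± 0.08 over HSCP-2 and 0.70 ± 0.07 over Multi-Lin). Each of these 4 genes rose against all 3 clusters, and Rap1b by the most over HSCP-2.

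The thromboxane genes followed the same direction. Tbxas1, which encodes thromboxane synthase, had 99.1 and 73.7 CPM in Meg, against 3.45 and 3.92 in Eryth, 41.8 and 47.5 in HSCP-2 and 18.5 and 16.97 in Multi-Lin (log2 4.46 ± 0.42 over Eryth, 0.94 ± 0.15 over HSCP-2 and 2.18 ± 0.14 over Multi-Lin). Ptgs1, which encodes the cyclooxygenase ahead of it, had 64.2 and 51.7 CPM in Meg, against 1.72 and 5.88 in Eryth, 23.9 and 33.2 in HSCP-2 and 7.76 and 5.61 in Multi-Lin (log2 3.88 ± 0.49 over Eryth, 1.01 ± 0.20 over HSCP-2 and 3.02 ± 0.20 over Multi-Lin). The levels of both genes in HSCP-2 lay between those in Meg and those in Multi-Lin and Eryth in each library. Vamp5, a vesicle fusion protein gene, had 496 and 488 CPM in Meg, against 824 and 1005 in Eryth, 373 and 368 in HSCP-2 and 181 and 190.5 in Multi-Lin and was the member lower than in Eryth (-0.99 ± 0.08). Rasgrp2, which encodes the exchange factor that activates Rap1, had 196 and 158 CPM in Meg, against 82.8 and 78.4 in Eryth, 127 and 122 in HSCP-2 and 212 and 208 in Multi-Lin, higher than in Eryth (1.04 ± 0.16) and HSCP-2 (0.50 ± 0.10). Its lower level than in Multi-Lin (-0.36 ± 0.08, -0.12 in the female library alone) was lost in DESeq2 (adjusted p 0.0507) and with thinned cells (edgeR adjusted p 0.0989).

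**Figure D2:**
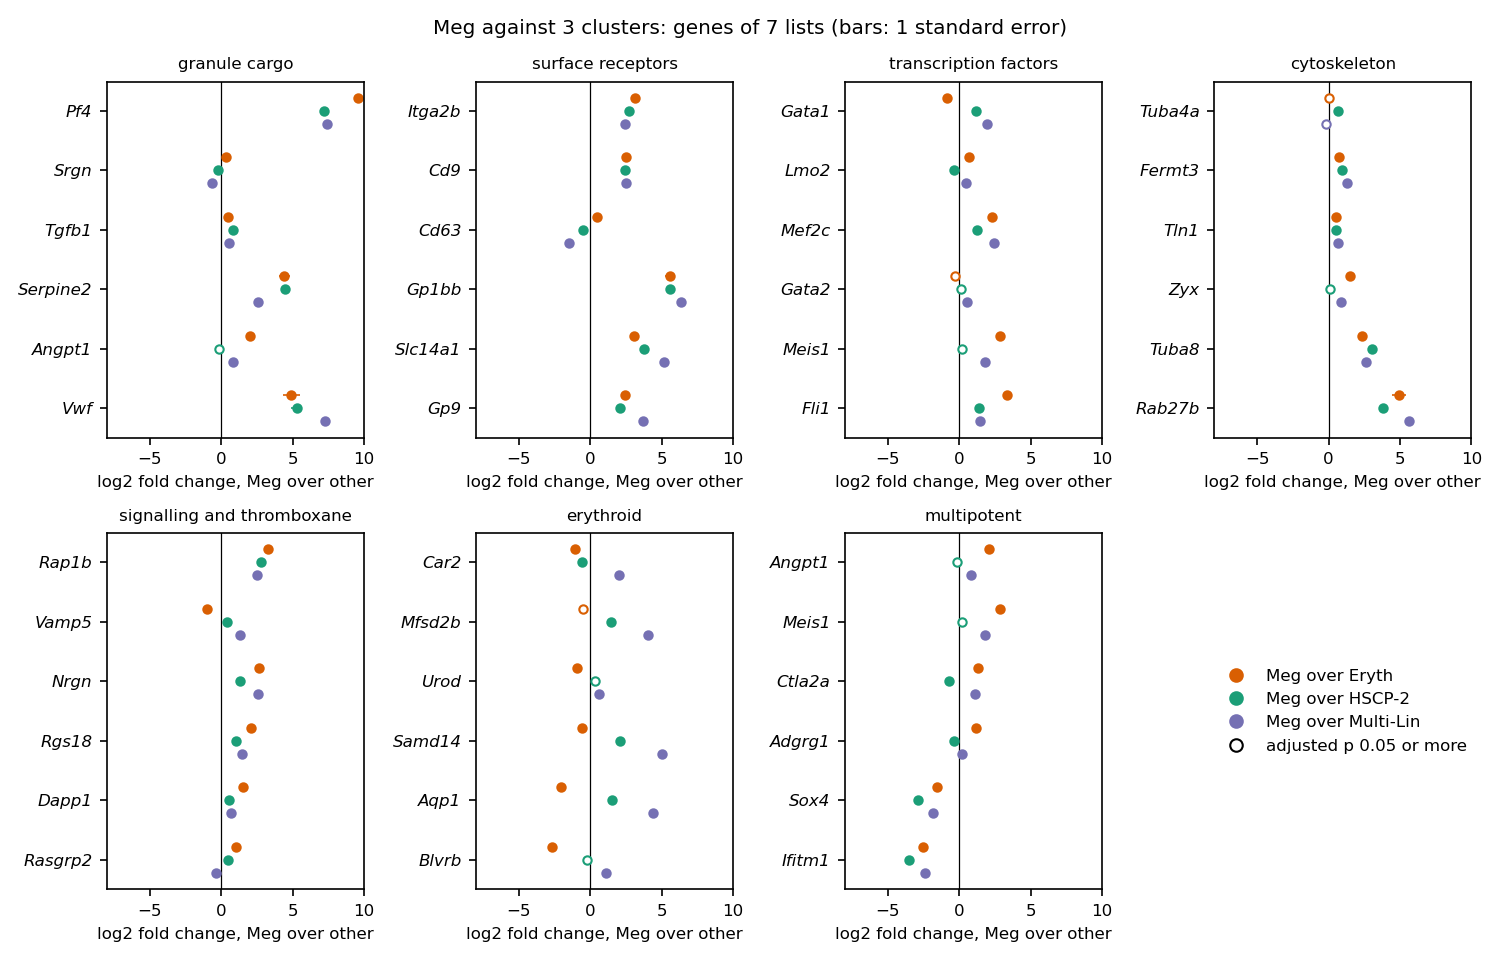
Log2 fold change of Meg over Eryth, HSCP-2 and Multi-Lin with bars of 1 approximate standard error for genes named here from the megakaryocyte, erythroid and multipotent lists, with open symbols where the edgeR adjusted p was 0.05 or above. Pf4 lies farthest to the right with 9.57, 7.17 and 7.43, the named erythroid genes lie left of 0 against Eryth, and Sox4 and Ifitm1 lie left of 0 in all 3 comparisons. The point of Vwf over Eryth rests on 2 Eryth UMIs, and that of Pf4 on 5 female and 1 male Eryth UMIs. Points of Serpine2, Gp1bb and Rab27b over Eryth also rest on few Eryth UMIs.

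Several genes of late megakaryocytes and platelets were at or near the floor in Meg. No UMI was found in either Meg sum for Tubb1, the beta tubulin of platelets, Myl9, a myosin light chain, Cd36, Wasf1 or the ADP receptor gene P2ry12. The 0 counts allow at most 2.09 and 2.54 CPM for each of them (3 counts of the sum). Gp1ba, the ligand-binding subunit of the von Willebrand factor receptor, had 11 and 0 UMIs, the collagen receptor gene Gp6 had 1 and 0, and Thbs1 (thrombospondin 1) had 5 and 6. Their level in Meg was not detectable, or close to the floor, at this depth, which does not show that they are absent.

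Genes of the erythroid lineage were mostly lower in Meg than in Eryth, with calls in both directions against HSCP-2 and mostly upward against Multi-Lin. Of 26 tested among 31, none was higher and 19 were lower than in Eryth, 7 were higher and 5 lower than in HSCP-2, and 13 were higher and 1 lower than in Multi-Lin. Summed over the list, erythroid genes had 1384 and 1273 CPM in Meg, against 5860.2 and 5585 in Eryth, 1653 and 1602 in HSCP-2 and 384 and 427 in Multi-Lin. Klf1, the erythroid Krüppel-like factor, had 15.4 and 26.3 CPM in Meg, against 222 and 249 in Eryth, 29.9 and 28.2 in HSCP-2 and 8.82 and 10.9 in Multi-Lin (log2 -3.63 ± 0.19 over Eryth, -0.52 ± 0.24 over HSCP-2 and 0.93 ± 0.24 over Multi-Lin). Klf1 in Meg was lower than in Eryth and did not pass against HSCP-2 (edgeR adjusted p 0.0955). Its rise over Multi-Lin was lost with thinned cells (edgeR adjusted p 0.159). Car1, an erythroid carbonic anhydrase gene, had 24.4 and 16.1 CPM in Meg, against 2459 and 2278 in Eryth, 113 and 65.1 in HSCP-2 and 8.57 and 13.2 in Multi-Lin. Tspo2, an erythroid translocator protein gene, had 1.396 and 0.847 CPM in Meg, against 143 and 139 in Eryth, 20.05 and 15.5 in HSCP-2 and 1.797 and 1.81 in Multi-Lin. Ermap, Rhd and Sphk1 had no UMI in Meg, which makes them at least 41.5-fold, 26.4-fold and 23.2-fold lower than in Eryth.

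Other erythroid list genes were higher in Meg than in Multi-Lin. Car2, the widely expressed carbonic anhydrase 2, had 653 and 607 CPM in Meg, against 1236 and 1220.4 in Eryth, 868 and 1001 in HSCP-2 and 146 and 151 in Multi-Lin (log2 -1.06 ± 0.08 over Eryth, -0.58 ± 0.07 over HSCP-2 and 1.97 ± 0.07 over Multi-Lin). Aqp1, a water channel gene, had 84.5 and 73.7 CPM in Meg, against 335 and 292 in Eryth, 33.7 and 21.01 in HSCP-2 and 2.37 and 4.32 in Multi-Lin (log2 -2.09 ± 0.16 over Eryth, 1.52 ± 0.19 over HSCP-2 and 4.38 ± 0.21 over Multi-Lin). Samd14 had 82.4 and 78.8 CPM in Meg, against 112 and 108 in Eryth, 22.2 and 15.97 in HSCP-2 and 2.45 and 2.07 in Multi-Lin (log2 -0.55 ± 0.18 over Eryth, 2.06 ± 0.18 over HSCP-2 and 5.02 ± 0.19 over Multi-Lin). Mfsd2b, which encodes the sphingosine-1-phosphate exporter of red cells and platelets, had 109 and 70.3 CPM in Meg, against 135 and 106 in Eryth, 41.8 and 24.4 in HSCP-2 and 4.25 and 5.29 in Multi-Lin and did not pass against Eryth (edgeR adjusted p 0.0615). Its log2 fold change was 1.43 ± 0.17 over HSCP-2 and 4.07 ± 0.18 over Multi-Lin. Epor, the erythropoietin receptor gene, had 20.2 and 21.2 CPM in Meg, against 51.7 and 39.2 in Eryth, 5.12 and 4.62 in HSCP-2 and 1.63 and 1.68 in Multi-Lin. Blvrb, which encodes biliverdin reductase B, had 67.01 and 85.6 CPM in Meg, against 447 and 447 in Eryth, 103 and 74.4 in HSCP-2 and 29.4 and 34.2 in Multi-Lin, lower than in Eryth (-2.67 ± 0.14), higher than in Multi-Lin (1.12 ± 0.15) and without a call against HSCP-2 (edgeR adjusted p 0.232). Urod, an enzyme of haem synthesis, had 91.4 and 84.7 CPM in Meg, against 174 and 131 in Eryth, 73.4 and 63.04 in HSCP-2 and 52.5 and 56.4 in Multi-Lin. The calls of Urod, lower than in Eryth and higher than in Multi-Lin, were lost with thinned cells (edgeR adjusted p 0.262 and 0.0849), and that of Samd14 against Eryth was lost in 5 of 10 other settings, with an adjusted p of at most 0.304.

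Stem and multipotent genes were mostly lower than in HSCP-2. Of 23 tested among 24, 10 were higher and 3 lower than in Eryth, 1 was higher and 17 lower than in HSCP-2, and 7 were higher and 10 lower than in Multi-Lin. Cd34, the progenitor surface marker, had 37.7 and 59.3 CPM in Meg, against 17.2 and 15.7 in Eryth, 357 and 393 in HSCP-2 and 291 and 261 in Multi-Lin (log2 1.42 ± 0.35 over Eryth, -3.00 ± 0.12 over HSCP-2 and -2.65 ± 0.12 over Multi-Lin). Flt3, a cytokine receptor of lymphoid and myeloid progenitors, had 2 and 3 UMIs in Meg, 1.396 and 2.54 CPM, against 70.8 and 64.7 CPM in HSCP-2. Slamf1, which encodes the stem cell marker CD150, was the member higher than in HSCP-2, with 11.2 and 14.4 CPM in Meg, against 13.8 and 11.8 in Eryth, 2.99 and 6.304 in HSCP-2 and 2.12 and 1.55 in Multi-Lin (edgeR adjusted p 0.0148). Kit, the stem cell factor receptor whose protein CD117 was used for the enrichment, had 39.1 and 46.6 CPM in Meg, against 68.98 and 62.7 in Eryth, 95.96 and 89.1 in HSCP-2 and 54.5 and 47.05 in Multi-Lin, lower than in Eryth and HSCP-2 and without a call against Multi-Lin (edgeR adjusted p 0.0679).

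Sox4, a transcription factor of early progenitors, was lower in Meg than in all 3 clusters, with 103 and 121 CPM in Meg, against 286 and 325 in Eryth, 792 and 824 in HSCP-2 and 334 and 395 in Multi-Lin (log2 -1.56 ± 0.12 over Eryth, -2.87 ± 0.09 over HSCP-2 and -1.82 ± 0.09 over Multi-Lin). Ifitm1, a membrane protein gene, had 78.9 and 141 CPM in Meg, against 291 and 972 in Eryth, 1081 and 1339 in HSCP-2 and 463 and 578 in Multi-Lin (log2 -2.57 ± 0.18 over Eryth, -3.51 ± 0.15 over HSCP-2 and -2.39 ± 0.15 over Multi-Lin). Ctla2a, a cysteine protease inhibitor gene, took a middle place with 551 and 566 CPM in Meg, against 222 and 206 in Eryth, 879 and 943 in HSCP-2 and 234 and 252 in Multi-Lin, higher than in Eryth (1.28 ± 0.10) and Multi-Lin (1.08 ± 0.07) and lower than in HSCP-2 (-0.72 ± 0.07). Adgrg1, the adhesion receptor GPR56, had 278 and 256 CPM in Meg, against 121 and 97.9 in Eryth, 342 and 328 in HSCP-2 and 224 and 203 in Multi-Lin, higher than in Eryth (1.18 ± 0.13). Its call over Multi-Lin was lost in 5 of 10 other settings (adjusted p of at most 0.43), and its call against HSCP-2 in 1 fit over all clusters (edgeR adjusted p 0.0581).

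Genes of the primary granule list, high in granulocyte progenitors, did not differ much from Eryth and were mostly far lower than in Multi-Lin. Of 11 tested, 1 was higher than in Eryth, namely Calr, which encodes an endoplasmic reticulum chaperone. Against HSCP-2, 1 was higher (Nkg7, a granule gene of cytotoxic lymphocytes) and 2 (Mpo and Prtn3) were lower. Against Multi-Lin, 9 were lower. Mpo, which encodes myeloperoxidase, had 818 and 796 CPM in Meg, against 811 and 827 in Eryth, 1068 and 1041 in HSCP-2 and 4380.0 and 4858 in Multi-Lin (log2 -2.63 ± 0.06 over Multi-Lin). Elane, which encodes neutrophil elastase, had 688 and 622 CPM in Meg, against 723 and 578 in Eryth, 739.6 and 676 in HSCP-2 and 1805 and 2069 in Multi-Lin (log2 -1.68 ± 0.08 over Multi-Lin). Levels of both genes in Meg lay near those in Eryth and HSCP-2, although Mpo passed as lower than in HSCP-2 (-0.40 ± 0.06).

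Most calls of secondary granule genes changed when cells with over 1000 Ly-6G counts were left out. In all cells, 14 genes were tested. Lyz2 (lysozyme) was higher than in Eryth. Camp and Lcn2, which encode antimicrobial granule proteins, were higher than in HSCP-2. Ly6g was higher than in Multi-Lin, and Cebpe, a granulocyte transcription factor gene, was lower than in Multi-Lin. By CPM, Camp and Lcn2 were above HSCP-2, and Ly6g above Multi-Lin, in the male library only. Without such cells in any of the 4 clusters, 13 genes were tested. Then Lyz2 was higher and S100a8 lower than in Eryth, none was higher and 6 were lower than in HSCP-2, and none was higher and 7, Cebpe among them, were lower than in Multi-Lin. The summed level of the list was 6355 and 8569 CPM in Meg with all cells, and 4514 CPM in the male library without the 3 cells. In male Eryth it was 7103 CPM with all cells and 4800.2 CPM without 1 cell. In Gran-1 it was 9680.3 and 8069 CPM. S100a8, a calprotectin subunit gene, had 3496 CPM in the male Meg sum with them and 1779 without, against 2346 in the female sum, whereas Pf4 had 3596 and 3339 CPM with and without them. No doublet caller was run.

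Genes of the basophil and mast cell list were lower than in Multi-Lin in most cases. Of 12 tested, 1 was higher (Srgn) and 2 (Cpa3 and Il1rl1) were lower than in Eryth, 6 were lower than in HSCP-2, and 11 were lower and Gata2 was higher than in Multi-Lin. Mcpt8, a basophil protease gene, had 18.8 and 13.6 CPM in Meg, against 27.6 and 7.84 in Eryth, 20.5 and 26.9 in HSCP-2 and 825 and 942 in Multi-Lin (log2 -5.85 ± 0.14 over Multi-Lin). Prss34, another mast cell protease gene, had 8.38 and 6.78 CPM in Meg, against 691 and 865 in Multi-Lin (log2 -6.76 ± 0.14). Cpa3, a mast cell carboxypeptidase gene, had 11.9 and 26.3 CPM in Meg, against 27.6 and 45.1 in Eryth, 62.7 and 111 in HSCP-2 and 408 and 647 in Multi-Lin, and its call against Eryth was lost in 3 other settings (edgeR adjusted p of at most 0.301). Ms4a2, a chain of the IgE receptor, had 2.79 and 10.2 CPM in Meg, against 118 and 134 in Multi-Lin. Of 4 eosinophil genes tested, 1, Siglecf, was lower than in Eryth and HSCP-2, and all 4 were lower than in Multi-Lin. Prg2, which encodes the major basic protein of eosinophils, had 15.4 and 10.2 CPM in Meg, against 196 and 409.6 in Multi-Lin (log2 -4.59 ± 0.18).

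Markers of other blood and marrow cells were mostly low or lower in Meg. Of 12 monocyte genes tested, 1 (Psap) was higher than in Eryth, 6 were lower than in HSCP-2 and 8 were lower than in Multi-Lin. Ly6c2, which encodes the Ly-6C antigen of monocytes, had 188 and 154 CPM in Meg, against 197 and 178 in Eryth, 195 and 171 in HSCP-2 and 235 and 218 in Multi-Lin, lower than in Multi-Lin (-0.52 ± 0.08, -0.32 in the female library alone). Psap, which encodes the lysosomal protein prosaposin, had 109 and 121 CPM in Meg, against 72.4 and 56.8 in Eryth, 192 and 205 in HSCP-2 and 114 and 112 in Multi-Lin, and its rise over Eryth (0.71 ± 0.18) was 1.09 in the male library alone. Of 6 dendritic cell genes tested, none passed against Eryth, 6 were lower than in HSCP-2 and 4 lower than in Multi-Lin. Among them Bst2, an interferon-induced membrane protein gene, had 86.6 and 88.96 CPM in Meg, against 110.4 and 104 in Eryth, 110.0 and 131 in HSCP-2 and 126 and 129 in Multi-Lin. Tcf4, a transcription factor of plasmacytoid dendritic cells, had 40.5 and 31.3 CPM in Meg, against 31.04 and 25.5 in Eryth, 64.8 and 49.2 in HSCP-2 and 30.5 and 29.7 in Multi-Lin, and its call against HSCP-2 was lost in DESeq2 (adjusted p 0.053) and with thinned cells (edgeR adjusted p 0.0533).

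Few lymphoid, macrophage and stromal genes could be tested. The members named here, beyond Egfl7 and Eng, were chosen after their values were seen. Of 3 B cell genes, Cd79b was higher than in Eryth and Ighm and Dntt were lower than in HSCP-2 and Multi-Lin. Ighm, an immunoglobulin heavy chain gene, had 7.68 and 10.2 CPM in Meg, against 52.9 and 45.8 in HSCP-2. Dntt, the terminal transferase of early lymphoid cells, had no UMI in Meg, at least 25.1-fold lower than in HSCP-2. Slc40a1 (ferroportin) was lower than in Eryth and Cd68 lower than in Multi-Lin among 5 macrophage genes, and Pdgfrb, the 1 stromal gene tested, was lower than in all 3 clusters. Of 6 endothelial genes, 1 (Tie1) was higher than in Eryth, 4 were lower than in HSCP-2, and 2 were higher and 3 lower than in Multi-Lin. Tie1, a receptor kinase gene, had 19.5 and 24.6 CPM in Meg and no UMI in Eryth, at least 7.93-fold higher. Egfl7 had 55.8 and 61.00 CPM in Meg, against 74.2 and 78.4 in Eryth, 138 and 135 in HSCP-2 and 77.3 and 73.6 in Multi-Lin. Eng (endoglin) had 48.9 and 44.1 CPM in Meg, against 44.8 and 37.2 in Eryth, 68.2 and 61.8 in HSCP-2 and 32.3 and 31.1 in Multi-Lin. The calls of Egfl7 and Eng against Multi-Lin, and that of Eng against HSCP-2, were lost with thinned cells (edgeR adjusted p 0.774, 0.205 and 0.299), and both calls of Eng were also lost in DESeq2 (adjusted p 0.175 and 0.118) and in 1 fit over all clusters (edgeR adjusted p 0.0648 and 0.0558).

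Cell cycle genes set Meg apart from HSCP-2. Of 18 S phase genes tested, 5 were higher than in Eryth, 17 higher than in HSCP-2, and 1 higher and 2 lower than in Multi-Lin. Of 18 G2/M genes, 3 were higher than in Eryth, 16 than in HSCP-2 and 13 than in Multi-Lin, and none was lower. Medians of the S phase list were 0.32, 0.70 and -0.02 on the log2 scale, and those of the G2/M list 0.40, 0.79 and 0.50. Both lists differed between the 2 libraries, in opposite ways, which was not tested. All 16 G2/M genes higher than in HSCP-2 were higher by CPM in the female library and 14 in the male, and of the 13 higher than in Multi-Lin, 13 were in the female and 9 in the male. Summed over the list, G2/M genes had 4288 and 3014 CPM in Meg, against 2906 and 3156 in Eryth, 2246 and 2425 in HSCP-2 and 2613 and 2709 in Multi-Lin. The S phase sums were 2243 and 2871 CPM in Meg, against 1859 and 1939 in Eryth, 1324 and 1759 in HSCP-2 and 2365 and 2390.0 in Multi-Lin. Of the 18 S phase genes, 6 were higher by CPM in Meg than in Multi-Lin in the female library and 15 in the male library.

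Dut, an enzyme of nucleotide supply in S phase, had 446 and 507 CPM in Meg, against 398 and 429 in Eryth, 251 and 283 in HSCP-2 and 419 and 436 in Multi-Lin (log2 0.82 ± 0.08 over HSCP-2). Mcm6, a subunit of the replicative helicase, had 200.3 and 288 CPM in Meg, against 189.7 and 176 in Eryth, 149 and 189 in HSCP-2 and 233 and 228 in Multi-Lin, with a rise over HSCP-2 (0.50 ± 0.10) that was lost with thinned cells (edgeR adjusted p 0.0663). Hmgb2, a chromatin protein gene of dividing cells, had 1696 and 1314 CPM in Meg, against 1369 and 1483 in Eryth, 1020.2 and 1059.9 in HSCP-2 and 1228 and 1250.2 in Multi-Lin (log2 0.52 ± 0.07 over HSCP-2 and 0.31 in the male library alone). Birc5, which encodes survivin, was higher than in all 3 clusters in both libraries, with 317 and 218 CPM in Meg, against 169 and 157 in Eryth, 144 and 149 in HSCP-2 and 179.8 and 174 in Multi-Lin. Ube2c, a ubiquitin-conjugating enzyme of mitotic exit, had 395 and 196 CPM in Meg, against 236 and 262 in Eryth, 180.0 and 208 in HSCP-2 and 179.5 and 199 in Multi-Lin. The female Meg sum of Ube2c stood above all others, the male one did not. Its calls over HSCP-2 (0.61 ± 0.14) and Multi-Lin (0.55 ± 0.12) became -0.09 and -0.03 in the male library alone and 1.13 and 1.14 in the female library alone.

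Of 19 genes for cyclins, their inhibitors and endomitosis, in which megakaryocytes replicate DNA without dividing, 2 (Ccnd3 and Cdkn2d) were higher and 1 (Ect2) was lower than in Eryth, 8 were higher and 2 lower than in HSCP-2, and 6 were higher and 3 lower than in Multi-Lin. Ccnd3, which encodes cyclin D3, had 246 and 213 CPM in Meg, against 117 and 104 in Eryth, 133 and 133 in HSCP-2 and 127 and 117 in Multi-Lin (log2 0.95 ± 0.14 over Eryth, 0.77 ± 0.09 over HSCP-2 and 0.80 ± 0.08 over Multi-Lin). Ect2, an exchange factor needed for cytokinesis that is reduced as megakaryocytes become polyploid, had 4.89 and 3.39 CPM in Meg, against 15.5 and 9.79 in Eryth, 13.2 and 8.83 in HSCP-2 and 13.5 and 12.3 in Multi-Lin (log2 -1.71 ± 0.57 over Eryth, -1.41 ± 0.43 over HSCP-2 and -1.74 ± 0.37 over Multi-Lin), on 7 and 4 Meg UMIs. Cdkn1a, which encodes the inhibitor p21, had 4.19 and 5.08 CPM in Meg, against 3.45 and 5.88 in Eryth, 20.5 and 8.83 in HSCP-2 and 22.2 and 20.1 in Multi-Lin and was lower than in HSCP-2 and Multi-Lin. Cdk4, the kinase partner of D-type cyclins, had 429 and 457 CPM in Meg, against 352 and 392 in Eryth, 339 and 419 in HSCP-2 and 478 and 468 in Multi-Lin. The calls of Cdk4 over HSCP-2 (0.21) and under Multi-Lin (-0.21) were lost in DESeq2 (adjusted p 0.143 and 0.252), without the library as a covariate (edgeR adjusted p 0.179 and 0.196) and with thinned cells (0.0911 and 0.228), the first also without cells over 2 times the median UMIs (0.109), and in the male library alone they were 0.13 and -0.04. Rhoa, a GTPase of cytokinesis, had 333 and 294 CPM in Meg, against 266 and 272 in Eryth, 279 and 296 in HSCP-2 and 274 and 282 in Multi-Lin and passed in no comparison. Ccnd3, Ect2 and Cdkn1a were chosen after their values were seen.

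Stress and immediate early genes, which also respond to cell handling, were lower in Meg than in HSCP-2. Of 16 tested, 1 was higher and 3 lower than in Eryth, 2 higher and 14 lower than in HSCP-2, and 2 higher and 9 lower than in Multi-Lin. Fos and Jun encode the subunits of the factor AP-1. Fos had 403 and 374 CPM in Meg, against 614 and 298 in Eryth, 1366 and 1024 in HSCP-2 and 648 and 518 in Multi-Lin (log2 -1.63 ± 0.09 over HSCP-2, -0.70 ± 0.09 over Multi-Lin, the last -0.47 in the male library alone). Jun had 769.9 and 723 CPM in Meg, against 704 and 533 in Eryth, 1535 and 1404 in HSCP-2 and 717 and 695 in Multi-Lin, lower only than in HSCP-2 (-0.99 ± 0.07). Hspa1a, a heat shock protein gene chosen after its values were seen, moved the other way, with 135 and 214 CPM in Meg, against 107 and 313 in Eryth, 28.6 and 141 in HSCP-2 and 68.1 and 189 in Multi-Lin (log2 1.11 ± 0.16 over HSCP-2). Of 12 interferon response genes tested, 3 (Ifi47, Ifitm3 and Usp18) were higher than in Eryth and Multi-Lin, and 1 (Bst2) was lower than in Multi-Lin. Against HSCP-2 1 (Ifi47) was higher and 5 were lower. Ifitm3, an antiviral membrane protein gene, had 699 and 708 CPM in Meg, against 164 and 206 in Eryth, 617 and 730.0 in HSCP-2 and 315 and 312 in Multi-Lin (log2 1.83 ± 0.11 over Eryth, 0.05 ± 0.07 over HSCP-2 and 1.05 ± 0.07 over Multi-Lin).

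The rule of the largest differences also named Cavin2, Plek and Csrp3. Cavin2, a coat protein gene of caveolae also known as a platelet phosphatidylserine-binding protein, had 155 and 139.8 CPM in Meg, against 0 and 3.92 in Eryth, 2.13 and 5.46 in HSCP-2 and 0.327 and 0.452 in Multi-Lin (log2 5.25 ± 0.24 over HSCP-2 and 8.33 ± 0.23 over Multi-Lin, with 2 UMIs in all in Eryth). Plek, of the signalling list, which encodes pleckstrin, a protein kinase C substrate of platelets, had 133 and 116 CPM in Meg, against 6.898 and 3.92 in Eryth, 24.3 and 21.9 in HSCP-2 and 18.05 and 16.3 in Multi-Lin (log2 4.40 ± 0.34 over Eryth, 2.42 ± 0.15 over HSCP-2 and 2.74 ± 0.13 over Multi-Lin). Csrp3, a muscle LIM protein gene, was lower than in all 3 clusters, with 7.68 and 25.4 CPM in Meg, against 172 and 221 in Eryth, 102 and 88.3 in HSCP-2 and 117 and 133 in Multi-Lin (log2 -3.73 ± 0.24 over Eryth, -2.61 ± 0.22 over HSCP-2 and -3.10 ± 0.19 over Multi-Lin).

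Against Eryth the metallothionein gene Mt2 had 3.49 and 3.39 CPM in Meg, against 174 and 74.4 (log2 -5.31 ± 0.38), and the carboxylesterase gene Ces2g 8.38 and 5.93, against 152 and 104 (log2 -4.27 ± 0.29). Against HSCP-2 the largest falls were those of Myl10, Hbb-bt, Mettl7a1, Ltb, Ifitm1 and Lsp1. Ltb, which encodes lymphotoxin beta, had 8.38 and 11.01 CPM in Meg, against 128 and 126 in HSCP-2 (log2 -3.74 ± 0.21). Lsp1, a leukocyte actin-binding protein gene, had 11.2 and 11.01, against 112 and 103 (log2 -3.30 ± 0.21), and Mettl7a1 had 5.58 and 8.47, against 107 and 79.01 (log2 -3.77 ± 0.26). Myl10, a myosin light chain gene, had 3 and 3 UMIs in Meg. The HSCP-2 level of Myl10 differed widely between the libraries (319 and 40.8 CPM), and its log2 fold change of -6.40 was -4.00 in the male library alone. Hbb-bt, an adult beta globin gene, had 10.5 and 3.39 CPM in Meg, against 5.17 and 13.7 in Eryth, 174 and 119 in HSCP-2 and 17.7 and 17.3 in Multi-Lin. Against Multi-Lin the chemokine gene Ccl9 fell with Mcpt8, Prss34, Cpa3, Prg2 and Ms4a2, to 24.4 and 27.1 CPM in Meg, against 466 and 488 in Multi-Lin (log2 -4.33 ± 0.12).

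Among all 17 clusters, 2612 genes had a mean of at least 50 CPM in Meg, and 287 of them (11.0%) were highest in Meg in both libraries. Of these 287, 30 belonged to a megakaryocyte list, a count given without the share of list genes among the 2612. The next highest cluster was Eryth for 85, HSCP-2 for 73 and Multi-Lin for 28. Mean levels of Pf4 were 107-fold those of the next cluster, those of Gp1bb 49.6-fold, Cavin2 38.8-fold and Rab27b 14.3-fold. The ratio was 5.87 for Itga2b. For Pf4 the next cluster was MDP, with 6.51 CPM in the female and 77.3 CPM in the male library. In male MDP 2 cells held 74 and 119 of 202 Pf4 UMIs. Clusters of few cells have noisy means, and these ratios are a description without a test.

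Single Meg cells carried more of the megakaryocyte programme than cells of the other clusters. The share of a cell's UMIs from 116 megakaryocyte list genes that belong to no other list had a median of 1.30% in female (0.668% to 4.28%) and 1.15% in male Meg cells (0.570% to 3.11%). Medians were 0.560% and 0.550% in Eryth, 0.598% and 0.615% in HSCP-2 and 0.493% and 0.497% in Multi-Lin. Outside Meg, 2 of 4250 female and 4 of 6711 male cells lay above the Meg median of their library. Without Pf4 the Meg medians were 1.12% and 0.993%, and 2 and 9 cells outside lay above them. The low end of Meg overlapped the other clusters. Above the 5th percentile of Meg lay 107 female cells outside it (2.52%) and 534 male cells (7.96%). Among them were 38 of 256 and 97 of 290 HSCP-2 cells and 23 of 686 and 130 of 1066 Multi-Lin cells. The overlap was not limited to these clusters, with 12 of 355 and 120 of 598 Gran-2 cells and 18 of 194 and 106 of 365 Myelo-1 cells.

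**Figure D3:**
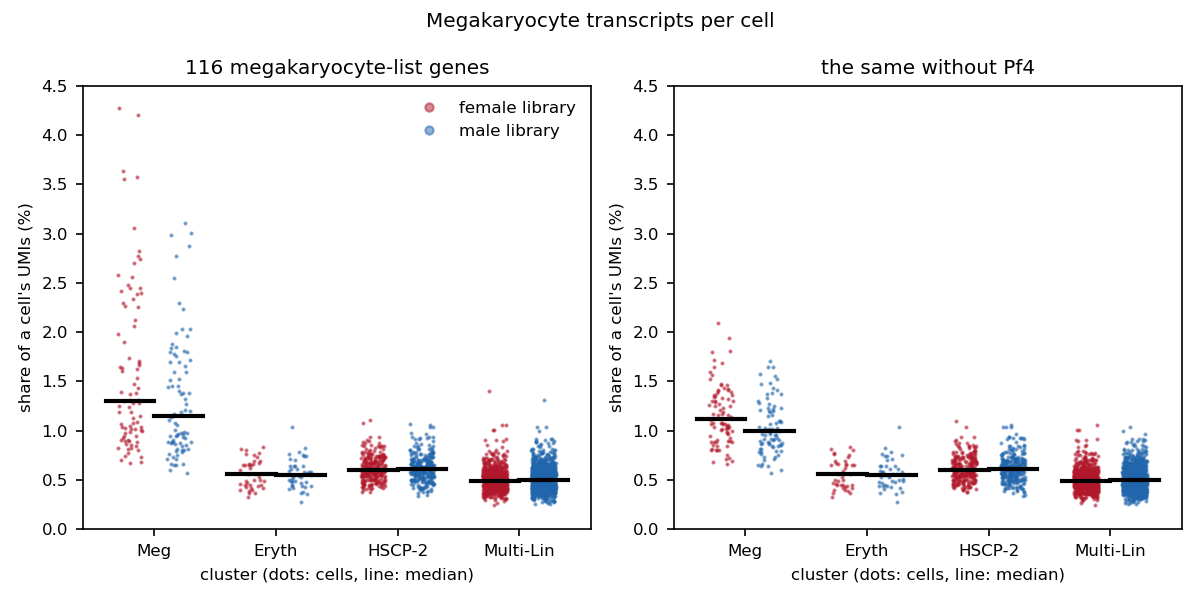
Share of each cell's UMIs (percent) from 116 megakaryocyte list genes, and from the same genes without Pf4, in Meg, Eryth, HSCP-2 and Multi-Lin, with 1 dot per cell and a line at the median of each library. The Meg medians of 1.30% and 1.15% lie above the bulk of the other clusters, and the lowest Meg cells, at 0.668% and 0.570%, lie within it.

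Pf4 varied widely between Meg cells. Female Meg cells held a median of 22 Pf4 UMIs and at most 800, and male ones a median of 13 and at most 374. None was found in 11 female and 15 male cells, 1 to 3 in 20 and 18, and over 100 in 22 and 12. The 21 cells with the most Pf4 in each library held 82.2% and 80.2% of its Meg UMIs, and at the top Pf4 was 2.68% and 1.52% of all UMIs of a cell. With cells thinned to 5000 UMIs, the variance of Pf4 over its mean was 44.6 and 26.5, against medians of 1.06 and 1.08 over the 1248 genes with a thinned mean of at least 0.5. Pf4 ranked first of these genes in the female library. In the male library it ranked second to S100a8 with 64.8, which had 0.938 without the 3 cells with high Ly-6G counts. Without them Pf4 ranked first with 25.1. Ordered by the lower of the 2 library values, Tmsb4x, which encodes the actin-binding peptide thymosin beta 4, came after Pf4 with 16.5 and 11.9, followed by Malat1 with 7.17 and 6.71, the histone gene Hist1h2ap with 6.01 and 4.65 and Hmgb2 with 5.65 and 4.48. Outside Meg, over 20 Pf4 UMIs were found in 3 of 4250 female and 8 of 6711 male cells, spread over the clusters Multi-Lin, MDP, Myelo-3, Gran-1 and MP, with a highest count of 190.

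Meg cells rich in Pf4 were rich in other megakaryocyte transcripts as well. Across cells within a library, the Spearman correlation of the Pf4 share with the summed share of the other 115 megakaryocyte genes was 0.74 in female and 0.80 in male Meg cells. In cells thinned to 5000 UMIs (85 in each library), 4 of 1247 genes correlated with Pf4 at 0.4 or above in both libraries, a limit chosen after the values were seen. Tmsb4x had 0.73 and 0.79, Rap1b 0.62 and 0.68, Cd9 0.61 and 0.46 and the translation inhibitor gene Pdcd4 0.48 and 0.54. Apoe, the apolipoprotein E gene, was the 1 gene at -0.4 or below in both, with -0.76 and -0.53. Between clusters, Tmsb4x had 7502 and 6773 CPM in Meg, against 1262 and 1297 in Eryth, 2858 and 2968 in HSCP-2 and 3548 and 3962 in Multi-Lin. Apoe had 719.6 and 757 CPM in Meg, against 1559 and 1397 in Eryth, 544 and 569 in HSCP-2 and 378 and 499 in Multi-Lin. Among these 4 clusters, Meg was highest for Tmsb4x and Eryth for Apoe. The megakaryocyte share fell where the erythroid share rose, with correlations of -0.47 and -0.36. Pf4 correlated weakly with a cell's total UMIs (0.37 and 0.33), and the G2/M share more strongly in the female library (0.57 and 0.39). These correlations are descriptions over cells that share a library and a total count.

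**Figure D4:**
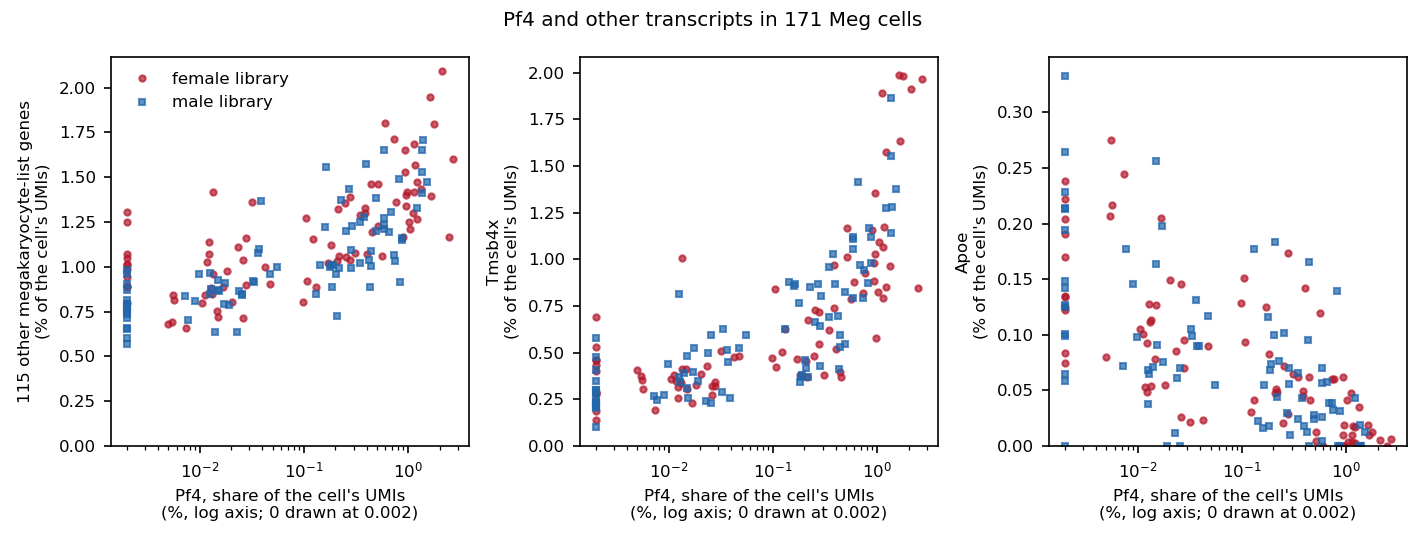
Pf4 share of each Meg cell's UMIs (percent, log axis, cells with none drawn at 0.002) against the shares of the other 115 megakaryocyte genes, Tmsb4x and Apoe, with 1 dot per cell and 1 colour per library. The megakaryocyte and Tmsb4x shares climb with Pf4 (Spearman 0.74 and 0.80 for the first) and the Apoe share declines.

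The female and male Meg sums were compared as 2 libraries without a test. Of 64 named genes with a mean of at least 20 CPM in Meg, 6 were at least 1.5-fold higher in the female sum and 2 in the male sum, a limit chosen after the values were seen. Higher in the female sum were Serpine2 (158 and 94.9 CPM), Gp1bb (232 and 147 CPM), Rab27b (150.1 and 91.5 CPM), Mfsd2b (109 and 70.3 CPM), Car1 (24.4 and 16.1 CPM) and Ube2c (395 and 196 CPM). Higher in the male sum were Ifitm1 (78.9 and 141 CPM) and Klf1 (15.4 and 26.3 CPM). Below that mean, Csrp3 (7.68 and 25.4 CPM), Cpa3 (11.9 and 26.3 CPM) and Ms4a2 (2.79 and 10.2 CPM) were also higher in the male sum.

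For all 4 antibodies, the counts of Meg cells overlapped those of Eryth, HSCP-2 and Multi-Lin cells. Because the clusters rest on RNA, separation by antibody was not compared with separation by RNA. The median CD117 count per cell was 293 and 240 in Meg, against 445 and 224 in Eryth, 369.5 and 263 in HSCP-2 and 357 and 206 in Multi-Lin. The order of the clusters thus differed between libraries, since female Meg cells had the lowest of the 4 medians and male ones the second highest. CD11b, an integrin of myeloid cells, had medians of 112.5 and 85 in Meg, against 79 and 49 in Eryth, 202 and 129 in HSCP-2 and 139 and 87 in Multi-Lin. In both libraries Meg lay above Eryth and below HSCP-2. Ly-6C had medians of 880.5 and 705 in Meg, against 852 and 623 in Eryth, 860 and 700.5 in HSCP-2 and 918.5 and 671.5 for cells of Multi-Lin. For Ly-6G, an antigen of neutrophils, the medians were 138.5 and 150 in Meg, against 102 and 88 in Eryth, 137.5 and 140.5 in HSCP-2 and 149 and 132 in Multi-Lin cells.

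On the deposited scale, the natural log of a tag's share of a cell's 4 counts, CD11b in Meg minus Eryth was 0.40 ± 0.13 (SD, n = 2 libraries) and Meg minus HSCP-2 -0.33 ± 0.13. Ly-6G in Meg minus Eryth was 0.25 ± 0.06. CD117 in Meg minus HSCP-2 was -0.11 ± 0.0017 and Meg minus Eryth -0.19 ± 0.16. Ly-6C in Meg minus HSCP-2 was 0.10 ± 0.09, and against Multi-Lin all 4 differences lay between -0.09 and 0.01. These differences were not tested, because a two-sided exact permutation test within 2 libraries cannot give a p below 0.5. Median total tag counts were 1520.5 and 1338 in Meg, against 1611 and 1017 in Eryth, 1716.5 and 1328.5 in HSCP-2 and 1652 and 1157.5 in Multi-Lin. Within Meg, each antibody rose with the total tag count, with Spearman correlations of 0.49 to 0.89.

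**Figure D5:**
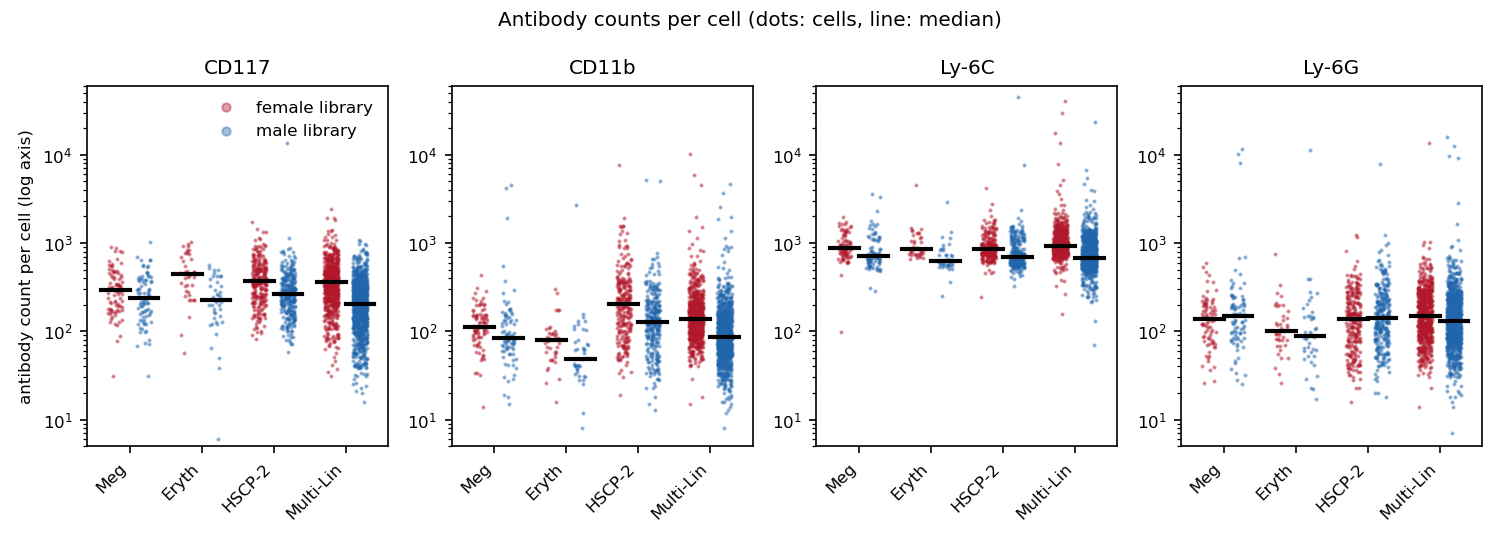
Antibody counts per cell (log axis) for CD117, CD11b, Ly-6C and Ly-6G in Meg, Eryth, HSCP-2 and Multi-Lin, with 1 dot per cell and lines at the median of each library. The Meg distributions overlap those of the other clusters for all 4 antibodies, and 3 male Meg cells stand apart with Ly-6G counts of 7977 to 11543.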

How the data were processed

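Cells of 1 female and 1 male mRNA library and their antibody tags were analysed. The authors deposited whole UMI counts for 28692 gene IDs in 11132 cells (28339 with a symbol, and the others held 0.0230% of UMIs), whole antibody counts, antibody values on a natural log scale and a cluster name per cell. Cell Ranger 2.1.0 and the build mm10 appear in the submitters' processing notes. The sources used here do not say how cells were called, doublets removed or clusters made, or what the cluster names stand for. The deposited natural log values equal the log of a tag's share of the cell's 4 counts. Cell names end with a mark of the library, by which cells were assigned.

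UMI counts were summed per cluster and library, because cells are not replicates. The library totals were 91448433 UMIs (female) and 124967351 UMIs (male), and no cell had under 4373 UMIs. No further filter on cells and no doublet caller was applied. The 8 sums of 4 clusters were fitted with edgeR 4.0.16 in R 4.3.3 (TMM, filterByExpr, quasi-likelihood test, 3 residual degrees of freedom), with the library as a covariate because the cells of all clusters come from the same 2 libraries. P-values were adjusted by Benjamini-Hochberg over all 9413 genes, with a threshold of 0.05. Approximate standard errors were taken as |log2 fold change| divided by the root of the F statistic, which can understate the error of large changes on few UMIs. The fit was tested on simulated counts. DESeq2 1.42.0, Python 3.11.15, numpy 2.4.6, scipy 1.17.1, pandas 2.3.3 and matplotlib 3.10.9 were also used. CPM values carry exact Poisson and shares exact Clopper-Pearson 95% intervals, which cover counting error only. The counts come from transcript 3' ends without length scaling, so levels were not compared between genes.

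The members and the 23 gene lists (385 genes, 384 in the count table) were chosen with earlier results of these data known. The named genes follow a rule: Pf4, Itga2b and Gata1, up to 6 members with the highest Meg CPM of each megakaryocyte, erythroid and multipotent list, up to 2 of any remaining list in which at least 3 members passed, and for each comparison the 6 largest changes each way among called genes with a mean of at least 50 CPM and the same sign in both libraries. It gave 79 genes, of which some are not reported here. Genes named outside it were chosen after their values were seen. Alternatives were DESeq2's scaling and test, no filter on low counts, no library covariate, a fit per pair, a fit over all clusters, cells thinned to 5000 UMIs, no cells over 2 times the median UMIs, no barcodes found in both libraries, each library alone and, chosen after seeing the data, no cells with over 1000 Ly-6G counts. Promoters and coordinates are RefSeq's for GRCm38.p6, matched by symbol.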

Additional observations from a re-analysis of the deposited data

Results flagged for a closer look

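For 4 named genes the difference between Meg and another cluster ran one way in the female library and the other way in the male library, with the 95% exact binomial interval of the counts excluding equal levels in each library. Other named genes, such as Mcpt8 and Hbb-bt over Eryth, had values of opposite sign without meeting that limit. With 1 sum per cluster and library, the difference between libraries was not tested. Values are log2 ratios of CPM.

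Mcm6, the replicative helicase subunit gene, was -0.22 in Meg over Multi-Lin in the female library and 0.34 in the male library. Hmgb2, the chromatin protein gene, was 0.31 in Meg over Eryth in the female library and -0.17 in the male library. Ube2c, the mitotic ubiquitin-conjugating enzyme gene, was 0.74 in Meg over Eryth in the female library and -0.42 in the male library. Fos, the immediate early gene, was -0.61 in Meg over Eryth in the female library and 0.33 in the male library. None of the 4 passed the edgeR test in the comparison concerned. Mcm6 came from the S phase list and Hmgb2 and Ube2c from the G2/M list. The naming rule had put members of both lists among the 79 named genes. No outlier test could be made with 2 libraries.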

How the results depend on the processing

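The number of genes past the threshold in Meg against Eryth, HSCP-2 and Multi-Lin was 1127, 2753 and 2209. It was 714, 1658 and 1134 with DESeq2's test, and 374, 1393 and 991 with cells thinned to 5000 UMIs, where fewer genes (7457) and fewer counts enter. Without the library as a block in the pairing of the sums it was 906, 2320 and 1733. Without cells with over 1000 Ly-6G counts, chosen after seeing the data, it was 1129, 2749 and 2286. In the other settings the counts stayed within 1.5 times. Of 237 comparisons of named genes, 182 were called, and 29 of these lost the call in at least 1 of 10 settings. The losses were 23 with thinned cells, 12 with DESeq2, 8 without the block and 8 in a fit over all clusters. With no filter on low counts 3 were lost, and without cells over 2 times the median UMIs also 3. None was lost with DESeq2's scaling, in fits per pair, without shared barcodes or without the Ly-6G cells. Leaving out a library leaves a value with no test. In the male library alone, Ube2c in Meg turned to -0.091 over HSCP-2 and -0.0276 over Multi-Lin, against 1.134 and 1.138 in the female library alone, and the cause was not tested.

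Antibody differences, Meg minus the other cluster, moved by more than the spread between libraries in some cases. On log2 counts they were -0.26 for CD117 against HSCP-2, and 0.462 and 0.0732 for Ly-6G against Eryth and HSCP-2. On a centred log ratio they were -0.0540 for CD117 against HSCP-2, -0.118 for Ly-6C against Eryth, and 0.136, 0.177 and 0.0310 for Ly-6G against Eryth, HSCP-2 and Multi-Lin. Without the Ly-6G cells they were -0.0734 for CD117 against HSCP-2 and -0.00936 for Ly-6G against Multi-Lin. Shares of Meg cells with a marker UMI fell with thinning by construction, to 76.5% and 69.4% for Pf4, 68.2% and 71.8% for Itga2b and 42.4% and 36.5% for Gata1. Eryth, with 84 cells and 579843 and 510491 UMIs, limits the comparison with it most in depth, and genes such as Vwf rest on 1 to 3 Eryth UMIs.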

Other observations

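Outside the gene lists, several genes with a mean of at least 50 CPM in Meg were highest there among the 17 clusters in both libraries. They were chosen after their values were seen, and the ratios carry no test. Rbpms2, an RNA-binding protein gene, had 60.7 and 39.8 CPM in the female and male Meg sums, against 2.56 and 5.04 CPM in those of HSCP-2, the next cluster, a ratio of means of 13.2. Cttn, which encodes the actin-binding protein cortactin, had 57.9 and 54.2 CPM in Meg, against 14.5 and 15.1 in HSCP-2. Ckap2l, a mitotic spindle gene, had 115 and 82.2 CPM in Meg, against 28.6 and 32.0 in Myelo-2. Kif2a, a microtubule-depolymerising kinesin gene, had 97.7 and 87.3 CPM in Meg, against 44.8 and 49.0 in Eryth. Fyb, an adaptor of integrin signalling in platelets and T cells, had 131 and 139 CPM in Meg, against 66.5 and 76.5 in HSCP-2. Rsu1, a gene of integrin adhesion complexes, had 268 and 260.9 CPM in Meg, against 115 and 172 in DC. Each of these 6 genes was above its next cluster in both libraries.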
